A study of Mus musculus with 24 samples.

Results

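Infarction was examined in the hearts of dnPI3K mice, which carry a dominant negative phosphoinositide 3-kinase (PI3K) transgene that the labels describe as expressed in the heart and as lowering PI3K activity. All arrays with the titles dnPI3K MI and dnPI3K sham were taken: 4 arrays 8 weeks after a myocardial infarction (MI) and 4 arrays 8 weeks after a sham operation, 8 of the 24 arrays of the series. The mice were of the FVB/N strain and were operated on at 4 months of age, and RNA came from hearts homogenized one by one. Nontransgenic (Ntg) mice and mice with a constitutively active PI3K transgene (caPI3K) had the same operations, with 4 arrays per group, and enter here to test differences between MI effects. The sources used here do not give the promoter of the transgene, the size of the infarcts or which part of the infarcted wall was taken. Whether each array stands for its own mouse is not stated, so the p-values speak of the spread among these arrays, which may be technical.

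When a coronary artery is closed, the muscle behind it dies and is replaced by a collagen scar made by activated fibroblasts. The surviving cardiomyocytes work against a higher wall stress, and over weeks they tend to change their contractile genes and to burn less fatty acid. PI3K of the p110 alpha class carries insulin and insulin-like growth factor signals in cardiomyocytes and supports physiological heart growth.

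Signals are those the authors deposited, and every change below is a difference of log2(signal + 11.2), MI minus sham, with its standard error (SE) from a limma fit over all 24 arrays. A gene is said to have risen or fallen where its Benjamini-Hochberg adjusted p over 14763 tested genes is below 0.05. Array quality was even but for dnPI3K MI replicate 1, whose median signal was 151, against 103 to 119 on the other 7 arrays, and whose correlation with the arrays of its group was 0.921 to 0.923, against correlations of up to 0.96 among the other 3. Heart muscle genes are among the brightest on all 8 arrays, with *Myh6*, the adult alpha myosin heavy chain, at 52390 to 60410 on the MI arrays and 60840 to 76810 on the sham arrays. *Xist*, which is read from the inactive X chromosome, lay between 8028 and 12467 on the 8 arrays and the Y-linked *Eif2s3y* between 2 and 41, so all 8 arrays look alike in the sex that these genes mark, which the labels do not give. *Pik3ca* (change -0.21, SE 0.15) and *Pik3r1* (-0.48, SE 0.16, adjusted p = 0.0553) were not called, and since it is not known whether their probe sets read the transgene, they check no label.

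After MI, 624 genes rose and 766 fell in dnPI3K hearts, together 9.42% of the genes tested (4.23% up and 5.19% down). All 4 MI arrays lay above all 4 sham arrays for 935 genes (6.33% of those tested) and below them for 1048 (7.1%). Fitted without the sham arrays numbered 415 to 418, which include dnPI3K sham replicates 1 and 2, 665 genes were called (269 up and 396 down), and 842 without dnPI3K sham replicate 1 alone. Within the arrays numbered under 1000, 3 MI against 2 sham, 850 genes were called, and within those numbered over 1000, 1 MI against 2 sham, 92; the sources used here do not say what the numbers mark. The rises were larger than the falls. Of the genes that rose, 121 did so by at least 1 log2 unit and 12 by at least 2, against 50 and 3 of those that fell, and the median change was 0.61 for rises and -0.40 for falls. The genes that fell were also bright ones, with a median sham signal of 3750, against 780 for the genes that rose and 375 for all genes tested.

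Brightness matters for how the falls are read. The mean signal without the highest and lowest 2% of probe sets was 500.003 or 500.004 on each of the 8 arrays as deposited, yet the 99th percentile of signal was 16141 to 17234 on the dnPI3K MI arrays and 18260 to 20892 on the dnPI3K sham arrays. The 1477 brightest genes had a median change of -0.14 and held 394 of the falls, and quantile normalization, which gives all arrays one distribution, moved that median to -0.03. For lists that hold many of these bright genes, the count after quantile normalization is given beside the count on the deposited signals. For most list counts that move by over 1.5 times when 1 array is left out, the moved counts are given too.

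**Figure D1:**
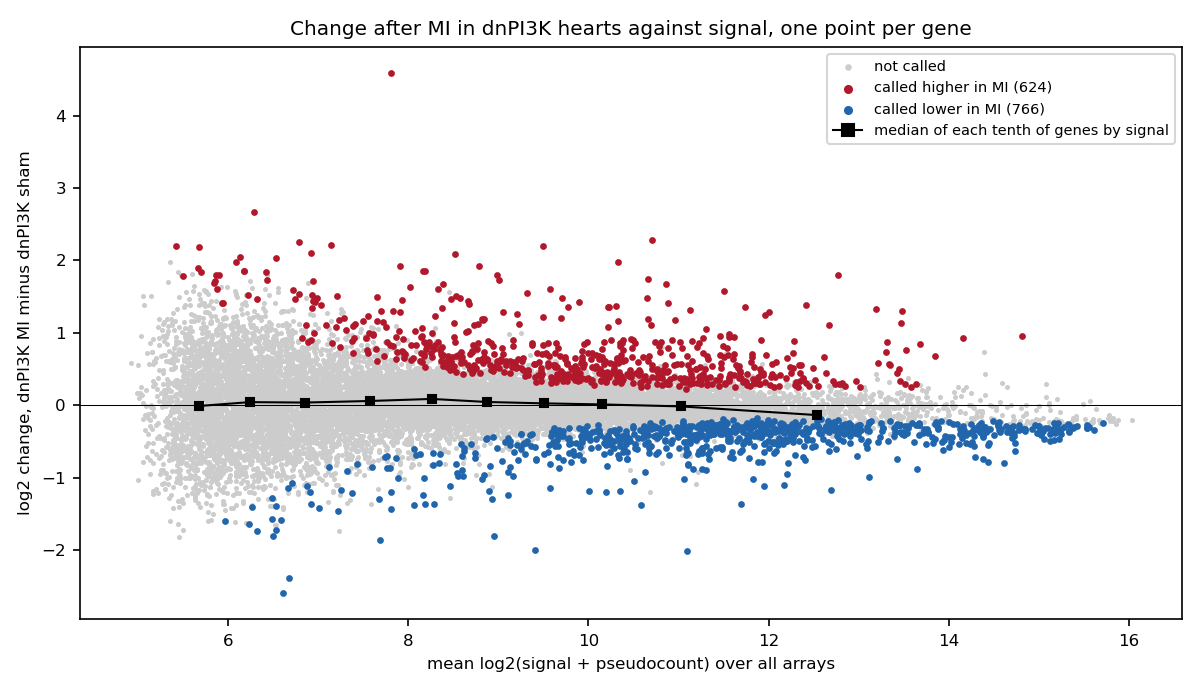
Log2 change after MI in dnPI3K hearts (vertical axis) against mean log2 signal over all arrays (horizontal axis), 1 point per gene; red and blue points are the 624 genes called higher and the 766 called lower in MI, and the black line joins the medians of 10 bins of genes by signal. The median leaves 0 most in the brightest bin, at -0.14.

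Collagen genes rose as a group. Of 7 fibrillar collagen genes tested, 5 rose and 0 fell, with a median change of 1.11, against 0.01 over all genes. Of 19 other collagens 12 rose and 0 fell (median 0.88). *Col1a1*, which encodes the alpha 1 chain of type I collagen, had signals of 1633, 1530, 1012 and 1465 on the MI arrays, against 367, 351, 696 and 907 on the sham arrays (change 1.36, SE 0.34, adjusted p = 0.0112). *Col3a1*, the type III chain that gives young scar its pliability, had 13840, 18130, 16550 and 17270 on the MI arrays, against 4952, 4355, 10230 and 7964 on the sham arrays (1.34, SE 0.25). In both genes the groups do not overlap, and sham replicates 3 and 4 were higher than sham replicates 1 and 2. Those 2 lower arrays bear the array numbers 417 and 418. In a fit that left out sham arrays 415 to 418, the changes were 0.80 for *Col1a1* (adjusted p = 0.342) and 0.86 for *Col3a1* (adjusted p = 0.0666), and 3 of the 7 fibrillar collagens rose.

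Other collagens showed a closer spread. *Col5a2*, a chain of the type V collagen that seeds fibrils, had signals of 2886 to 3886 on the MI arrays, against 1022 to 1592 on the sham arrays (1.41, SE 0.19, adjusted p = 8.45e-05). *Col8a1*, a short-chain collagen of vessel walls, had the largest change among the 4 non-fibrillar collagens named here (1.57, SE 0.22), with *Col6a1*, of the beaded filaments around cells, at 0.85 (SE 0.15). The basement membrane chains *Col4a1* (0.89, SE 0.16) and *Col4a2* (0.94, SE 0.18) rose too. These 5 genes also rose without the arrays numbered 415 to 418, by 0.74 to 1.41.

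The enzymes that mature collagen rose with it: 9 of 19 genes of collagen processing and crosslinking rose and 0 fell (median 0.53). *Lox*, the lysyl oxidase that oxidizes lysines so that collagen and elastin chains can be joined, had signals of 709, 527, 662 and 812 on the MI arrays, against 157, 232, 269 and 98 on the sham arrays. Its lowest MI array stood well above its highest sham array (1.86, SE 0.25, adjusted p = 6.87e-05). *Loxl1*, the family member tied to elastic fibres, rose by 1.18 (SE 0.18), and *Pcolce*, which speeds the cutting of procollagen, by 0.87 (SE 0.14). *Pcolce2* rose by 0.72 (SE 0.13).

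Small leucine-rich proteoglycans, which coat collagen fibrils, were split. Of 10 tested 4 rose and 0 fell (median 0.31). *Fmod*, fibromodulin, had signals of 2149, 2133, 2151 and 3011 on the MI arrays, against 832, 948, 999 and 862 on the sham arrays (1.35, SE 0.15, adjusted p = 1.01e-05). *Bgn*, biglycan, was much brighter, at 17480 to 26450 on the MI arrays and 6515 to 9361 on the sham arrays (1.30, SE 0.22). *Prelp* (0.98, SE 0.16) and *Aspn* (0.66, SE 0.17) were the other 2 that rose.

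Matricellular proteins signal to cells from the matrix rather than hold it together, and 9 of 21 rose and 0 fell (median 0.58). *Comp*, the cartilage oligomeric matrix protein that helps to assemble collagen, had the smallest p of any gene after MI. Its signals were 4113, 3621, 4931 and 7604 on the MI arrays, against 811, 1202, 1140 and 851 on the sham arrays (2.29, SE 0.22, adjusted p = 1.92e-06). *Postn*, periostin of activated fibroblasts, had 12390, 14920, 11340 and 16770 on the MI arrays, against 2924, 4226, 5010 and 3810 on the sham arrays (1.80, SE 0.31). *Cilp*, a cartilage protein that binds TGF-beta, had 994 to 1792 on the MI arrays, against 228 to 309 on the sham arrays (2.20, SE 0.44). In none of these 3 genes do the groups overlap, which the rule that named *Cilp* required. *Sparc*, which binds collagen, rose by 0.85 (SE 0.13), and *Ccn5*, a secreted CCN family protein, by 1.80 (SE 0.28).

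Elastic fibre genes had 11 rises (68.8%) and 1 fall (6.25%) among 16 tested (median 0.67). The shares of all genes tested were 4.23% and 5.19%. Without sham replicate 1 there were 7 rises, and the fall was not called without MI replicate 3, MI replicate 4 or sham replicate 3. *Mfap5*, a microfibril glycoprotein, had 9202, 10300, 8055 and 11640 on the MI arrays, against 3343, 4096, 3866 and 3554 on the sham arrays (1.39, SE 0.20). *Fbln5*, which links elastin to cells, rose by 0.88 (SE 0.12). The latent TGF-beta binding proteins *Ltbp2* (1.92, SE 0.38) and *Ltbp3* (0.93, SE 0.14) rose as well. *Mfap4* had the largest rise of all genes tested, but its signals were 1196, 1476, 1505 and 1991 on the MI arrays, against 19, 48, 365 and 13 on the sham arrays, of which 3 lie near the floor, so the size of its change (4.59, SE 0.71) depends on the constant added before the log. For *Mfap4* it was 5.01 with a constant of 1 and 3.11 with the median signal as the constant.

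Of 26 metalloproteinases and inhibitors, 5 rose and 0 fell. *Mmp2*, gelatinase A, had 3979, 4708, 4213 and 5305 on the MI arrays, against 1917, 2310, 2713 and 2490 on the sham arrays (0.95, SE 0.13), and *Mmp14*, the membrane protease that activates it, rose by 1.03 (SE 0.22). Inhibitors rose beside them, *Timp1* by 1.47 (SE 0.29) and *Timp2* by 0.60 (SE 0.14). *Adamtsl2*, a secreted relative without protease activity, rose by 1.86 (SE 0.43). Its sham signals were 39, 328, 272 and 228, so the size of its change rests in part on 1 low sham array. All 5 genes that passed thus moved in one direction, proteases and inhibitors alike. Basement membrane genes outside the collagens showed 1 rise and 1 fall among 12 (8.33% each, against 4.23% and 5.19% of all genes tested). *Lamc1* rose by 0.39 (SE 0.11) and *Lamb3*, a laminin chain of epithelia, fell by 1.19 (SE 0.23). The list of basement membrane genes had 0 rises when MI replicate 2 or 4 or sham replicate 1 or 2 was left out.

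Of 33 genes of TGF-beta and BMP signalling, 8 rose and 0 fell (median 0.24). The count was 4 without sham replicate 1 or without the arrays numbered 415 to 418, and 5 without MI replicate 4 or sham replicate 4. *Tgfb2*, one of the TGF-beta ligands, had signals of 1597, 2415, 1678 and 1625 on the MI arrays, against 627, 841, 611 and 599 on the sham arrays (1.43, SE 0.19). *Tgfb3* rose by 1.12 (SE 0.20), the receptor *Tgfbr1* by 0.41 (SE 0.08) and *Fstl1*, a secreted follistatin-like protein, by 1.25 (SE 0.18). Ligands and a receptor of the pathway were thus both among the rises. In the Wnt list 5 of 20 rose and 0 fell, with the secreted antagonists *Frzb* (1.32, SE 0.15) and *Dkk3* (1.48, SE 0.23) and the receptors *Fzd1* (0.73, SE 0.14) and *Fzd2* (1.06, SE 0.22) as those of smallest p.

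**Figure D2:**
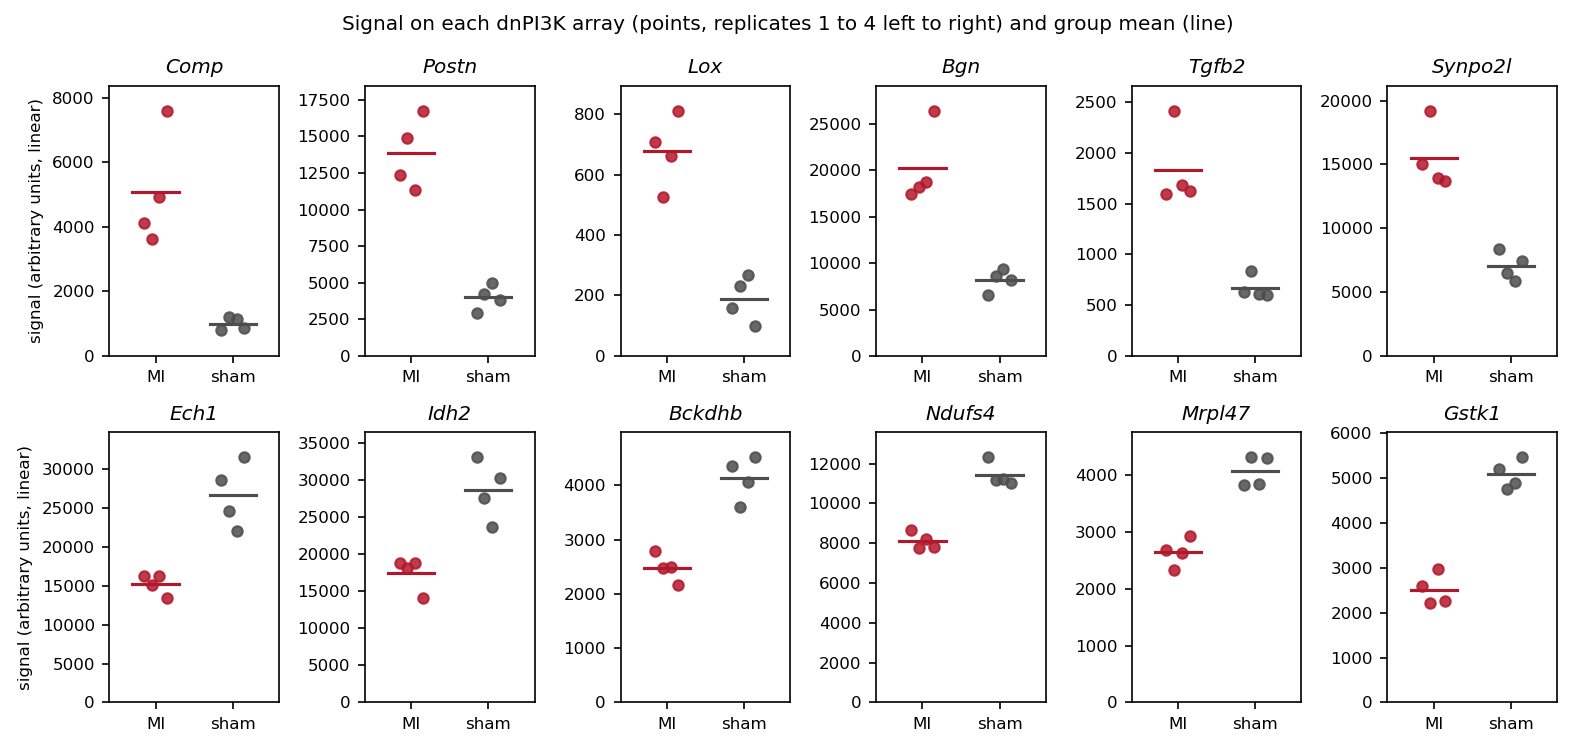
Signal in arbitrary linear units (vertical axes, each starting at 0) of 12 genes on the 4 dnPI3K MI arrays (red, left) and the 4 dnPI3K sham arrays (grey, right); lines are group means. The upper row holds genes that rose (Comp, Postn, Lox, Bgn, Tgfb2, Synpo2l) and the lower row genes that fell (Ech1, Idh2, Bckdhb, Ndufs4, Mrpl47, Gstk1), and in none of the 12 do the groups overlap.

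Markers of the cells that make matrix were read next. In bulk tissue, more cells of a type and more RNA per cell cannot be told apart. Of 20 fibroblast markers 6 rose and 0 fell (median 0.27), and 10 rose after quantile normalization. *Pi16* (1.67, SE 0.27) and *Islr* (0.90, SE 0.14), which mark resting fibroblasts, rose, as did *Meox1* (1.08, SE 0.22), a homeobox factor of activated fibroblasts. Over the whole list the summed signal was 157885 to 190489 on the MI arrays and 140496 to 158010 on the sham arrays, and the part of cell number in the matrix changes was not tested. Of 14 markers of smooth muscle, pericytes and myofibroblasts 2 rose (14.3%) and 1 fell (7.14%), against 4.23% and 5.19% of all genes tested. The rises were *Pdgfrb* (0.41, SE 0.08) and the intermediate filament gene *Des*, shared with cardiomyocytes (0.34, SE 0.09). Without MI replicate 4 there was 1 rise. *Abcc9*, a channel subunit of pericytes and muscle, fell by 0.31 (SE 0.10), and was not called after quantile normalization (-0.23, adjusted p = 0.102) or when any of 6 single arrays was left out.

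Markers of other cells were read in the same way. Among 27 macrophage and myeloid markers 1 rose (3.7%, against 4.23% of all genes tested), *Laptm5* (0.79, SE 0.21), and the median change was 0.23. Leaving out 1 array gave 0 to 4 rises in that list. The MI signals of 1045, 1006, 1099 and 1322 of *Laptm5* overlap the sham signals of 607, 498, 1030 and 526, since sham replicate 3 lies within the MI range. The summed signal of the macrophage list was 60142 to 86401 on the MI arrays and 47600 to 80683 on the sham arrays. None of 11 T, B and NK cell markers, 5 mast cell markers or 6 blood cell markers was called, and 1, 1 and 0 of them had an unadjusted p below 0.05 (limma). Of 23 endothelial markers 2 rose (8.7%, against 4.23% of all genes tested), and without sham replicate 4 there was 1. The 2 were the endothelin receptor *Ednrb* and *Esm1*, a gene of sprouting tip cells (2.22, SE 0.56, from sham signals of 12 to 115). *Ednrb* was even within each group, at 1813, 2049, 1935 and 2065 on the MI arrays and 959, 1135, 1015 and 1043 on the sham arrays (0.91, SE 0.11, adjusted p = 4.26e-05), and it is not confined to endothelium. The general endothelial markers *Cdh5* (0.33, SE 0.14, adjusted p = 0.158) and *Tie1* (0.33, SE 0.13, adjusted p = 0.134) were not called.

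Adipocyte markers fell in 3 of 7 cases, and in 2 after quantile normalization. *Adipoq*, adiponectin, had signals of 804, 313, 142 and 290 on the MI arrays, against 1112, 686, 781 and 698 on the sham arrays (-1.29, SE 0.32), and *Car3* had 6555, 2112, 596 and 2371 on the MI arrays, against 6971, 4026, 5676 and 5420 on the sham arrays (-1.36, SE 0.39). In both genes MI replicate 1 reached the sham range. None of the 7 was called without the arrays numbered 415 to 418, or without sham replicate 1 alone, and 1 was without MI replicate 2, MI replicate 3 or sham replicate 4. Epicardial and mesothelial markers rose in 3 of 11 cases, with the keratin *Krt18* at 1.63 (SE 0.29), *Sulf1* at 0.69 (SE 0.14) and the epicardial factor *Wt1* at 0.80 (SE 0.23).

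Genes of the cytoskeleton and of adhesion to the matrix rose too: 15 of 35 rose and 0 fell (median 0.32), and 22 rose after quantile normalization. *Itgbl1*, an integrin-beta-like secreted protein, had 2285, 2656, 3032 and 4533 on the MI arrays, against 660, 811, 1067 and 575 on the sham arrays (1.98, SE 0.28). The proteoglycan *Vcan* rose by 1.35 (SE 0.20), the annexin *Anxa3* by 0.62 (SE 0.09) and the integrin subunit *Itgb5* by 0.58 (SE 0.09). Without the arrays numbered 415 to 418 the count was 7.

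The cardiomyocyte's own stress genes moved unevenly. Among 23 Z-disc and mechanical stress genes 6 rose and 0 fell, against a median of only 0.07 (0.25 after quantile normalization). *Synpo2l*, a Z-disc protein that binds actin, had 15010, 19220, 13930 and 13740 on the MI arrays, against 8372, 6468, 5887 and 7416 on the sham arrays (1.14, SE 0.14, adjusted p = 4.26e-05). *Fhl1*, a LIM protein of the stretch-sensing titin complex, had 24700, 29060, 22040 and 24120 on the MI arrays, against 13590, 14060, 11880 and 12860 on the sham arrays (0.93, SE 0.12). In both genes every MI array lay above every sham array. *Ankrd23* (0.74, SE 0.17) and *Enah* (0.44, SE 0.10) rose as well, while *Ankrd1*, a classical strain-induced gene, was not called (0.07, SE 0.10). *Ankrd1* was already at 42850 to 56250 on the sham arrays, among the brightest signals, and its change was 0.27 (adjusted p = 0.00839) after quantile normalization.

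Natriuretic peptides, the usual markers of wall stress, were not called. *Nppa* had 57150, 52900, 60360 and 58570 on the MI arrays, against 66780, 61690, 55370 and 57040 on the sham arrays (-0.07, SE 0.27, adjusted p = 0.918, and 0.11 after quantile normalization). *Nppb* had 42450 to 44440 on the MI arrays, against 35270 to 44910 on the sham arrays (0.11, SE 0.11, adjusted p = 0.645). The highest signal of any probe set was 58410 to 66014 on the MI arrays and 65640 to 84219 on the sham arrays. *Nppa* came near these highest signals, while *Nppb* lay well below them. The mean log2 signal of *Nppa* was 15.874 on the sham arrays and 15.803 on the MI arrays, against 15.126 over the whole series. Its level in dnPI3K sham hearts was thus above the series mean, which takes in MI and sham arrays of all genotypes. Whether the range of the arrays limited the change of *Nppa* was not tested. None of the 8 genes of the natriuretic list was called, with 1 at an unadjusted p below 0.05 by limma, and 1, *Nppb* (0.34, adjusted p = 0.0336), was called after quantile normalization. Without MI replicate 3 there were 1 rise and 1 fall, and without sham replicate 3 there was 1 fall.

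Sarcomere genes were called at about the share of all genes. Of 22 tested 1 rose and 1 fell (4.55% each), with 0 to 3 falls when 1 array was left out, and the median change of -0.16 became 0.01 after quantile normalization. *Acta1*, the skeletal alpha actin of the fetal programme, had 36430, 37480, 34720 and 31730 on the MI arrays, against 14620, 18800, 17430 and 21790 on the sham arrays (0.96, SE 0.17). *Tnni3*, cardiac troponin I, fell by 0.35 (SE 0.09), or 0.14 after quantile normalization. *Myh7*, the slow beta myosin, had 27970, 34220, 34130 and 27490 on the MI arrays, against 23570, 32590, 8273 and 18410 on the sham arrays (0.73, SE 0.34, adjusted p = 0.194), with sham arrays that spread widely. *Rcan1*, a calcineurin regulator that calcineurin itself induces, had 6210, 7765, 4042 and 5293 on the MI arrays, against 2420, 2249, 2367 and 1869 on the sham arrays (1.35, SE 0.22).

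Calcium cycling genes fell in 4 of 26 cases and rose in 0 (median -0.19), with 1 fall after quantile normalization (median -0.09). There was 1 fall without sham replicate 1 and 2 without MI replicate 2. The fall under quantile normalization was *Hrc*, the histidine-rich calcium-binding protein of the sarcoplasmic reticulum, at 12110, 11480, 12810 and 10800 on the MI arrays and 18300, 14870, 14960 and 17540 on the sham arrays (-0.47, SE 0.09). *Atp2a2*, the SERCA2 calcium pump, fell by 0.31 (SE 0.08), but by 0.08 (adjusted p = 0.28) after quantile normalization. *S100a1* (-0.27, SE 0.07) and *Trdn*, triadin (-0.39, SE 0.11), likewise lost their call under that scaling. The inhibitor of the pump, *Pln* or phospholamban, was not called on either scaling (-0.24, adjusted p = 0.0666, and -0.02). Among 17 potassium channel genes 1 fell (5.88%, against 5.19% of all genes tested), and 2 fell without MI replicate 3. The 1 that fell was *Kcnd2*, a subunit of the transient outward current (-0.66, SE 0.16).

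Adrenergic and growth signals included the receptor kinase *Grk5*, which switches off beta-adrenergic receptors and rose to 2362, 1960, 2151 and 2193 on the MI arrays, against 1198, 1418, 1185 and 1095 on the sham arrays (0.82, SE 0.15). The angiotensin receptor *Agtr1a* fell by 0.57 (SE 0.15). Of 16 adrenergic, angiotensin and endothelin genes 2 rose (12.5%) and 1 fell (6.25%), against 4.23% and 5.19% of all genes tested. There were 0 falls without MI replicate 2 or sham replicate 4, and 2 without MI replicate 1. Of 27 angiogenic growth factor and hypoxia genes 4 rose (14.8%) and 1 fell (3.7%). There were 2 rises without MI replicate 3 or 4 or sham replicate 1 or 4, and 2 falls without sham replicate 2. *Hbegf*, a heparin-binding ligand of the EGF receptor, had 2173, 3384, 1783 and 2299 on the MI arrays, against 888, 1231, 1080 and 1162 on the sham arrays (1.11, SE 0.16). *Vegfc*, a lymphatic growth factor, rose by 0.62 (SE 0.14), though its groups overlap (MI replicate 1 at 1034 and sham replicate 2 at 1081). *Fgf13*, an intracellular partner of sodium channels, fell by 0.64 (SE 0.10). *Il15*, a cytokine that muscle also makes, fell to 1032, 795, 1444 and 1635 on the MI arrays, against 2280, 2083, 2585 and 2681 on the sham arrays (-1.01, SE 0.17). Among 31 chemokines, cytokines and complement genes 2 rose (6.45%) and 1 fell (3.23%), against 4.23% and 5.19% of all genes tested. There was 1 rise without MI replicate 2 or 4 or sham replicate 1 or 2, and 2 falls without MI replicate 4 or sham replicate 4. Interferon response genes had 1 rise among 26 (3.85%, against 4.23% of all genes tested), which was lost when any of 7 single arrays was left out. Clock genes had 0 calls among 18 (2 at an unadjusted p below 0.05 by limma).

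Genes of fatty acid uptake and oxidation, the main fuel route of the adult heart, fell in 20 of 31 cases and rose in 0 (median -0.43). After quantile normalization 16 fell (median -0.36). *Ech1*, which isomerizes unsaturated acyl-CoA, had 16200, 15140, 16230 and 13370 on the MI arrays, against 28610, 24640, 22030 and 31560 on the sham arrays (-0.80, SE 0.11, and -0.59 after quantile normalization). *Eci1*, another isomerase of unsaturated chains, had 9383, 8511, 7688 and 6726 on the MI arrays, against 15930, 13360, 12810 and 17250 on the sham arrays (-0.88, SE 0.13). *Decr1*, the reductase of the same side route, fell by 0.74 (SE 0.11). The 3 genes of smallest p thus all serve unsaturated fatty acids. *Hsd17b10*, which also acts on branched-chain intermediates, fell by 0.60 (SE 0.09). *Acadm*, the medium-chain dehydrogenase, fell by 0.36 (SE 0.09) on the deposited signals and was at -0.11 (adjusted p = 0.221) after quantile normalization.

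Breakdown of branched-chain amino acids and propionate feeds the same cycle, and 15 of its 22 genes fell and 0 rose (median -0.45). After quantile normalization 14 fell (median -0.37), and 13 or 14 fell when the arrays numbered 415 to 418, MI replicate 1 or sham replicate 1 were left out. *Bckdhb*, a subunit of the branched-chain ketoacid dehydrogenase, had 2798, 2482, 2502 and 2157 on the MI arrays, against 4363, 3595, 4071 and 4523 on the sham arrays (-0.73, SE 0.11). *Auh*, a hydratase of leucine breakdown, fell by 0.54 (SE 0.08). *Mcee* (-0.64, SE 0.10) and *Mmut* (-0.69, SE 0.12), the last enzymes from propionate to succinyl-CoA, fell with it. Counts of called genes were thus nearly the same on both scalings for this list.

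Citric acid cycle genes fell in 14 of 17 cases, and in 7 after quantile normalization (median -0.33 as deposited and -0.14 after quantile normalization). Without sham replicate 1 there were 9 falls. *Idh2*, the mitochondrial NADP-linked isocitrate dehydrogenase, had 18740, 18160, 18850 and 14120 on the MI arrays, against 33060, 27600, 23670 and 30280 on the sham arrays (-0.71, SE 0.14). The succinyl-CoA ligase genes *Suclg2* (-0.54, SE 0.09) and *Suclg1* (-0.37, SE 0.07) and *Sdhd*, a membrane anchor of complex II (-0.43, SE 0.09), fell on both scalings.

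Counts of respiratory chain subunits differed between the scalings and rested in part on single arrays. Of 34 complex I genes 31 fell on the deposited signals (median -0.35), against 8 after quantile normalization (median -0.10). The counts were 8 and 3 of 10 for complex III, 7 and 2 of 13 for complex IV, where 1 gene rose on the second scaling, and 11 and 4 of 15 for ATP synthase. Without sham replicate 1 the falls on the deposited signals numbered 5 for complex III, 3 for complex IV and 5 for ATP synthase. Complex III also had 5 without MI replicate 2 or MI replicate 4, and complex IV 3 without MI replicate 2. Under both scalings the medians lay below 0. *Ndufs4*, an accessory subunit of complex I, had 8667, 7764, 8209 and 7802 on the MI arrays, against 12330, 11180, 11230 and 11020 on the sham arrays (-0.50, SE 0.07, and -0.42 with adjusted p = 0.000108 after quantile normalization). *Cox8b*, the heart and muscle form of a complex IV subunit, fell by 0.50 (SE 0.08), or 0.25 after quantile normalization. *Cox4i1* (-0.32, SE 0.08) and *Uqcrfs1*, the Rieske iron-sulfur protein of complex III (-0.35, SE 0.07), were not called after quantile normalization (-0.10 and -0.10, adjusted p = 0.0789 and 0.188).

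Genes of the mitochondrial ribosome, which translates the proteins coded by mitochondrial DNA, had similar counts on both scalings. Of 74 tested 34 fell and 0 rose (median -0.25), and 30 fell after quantile normalization (median -0.21). *Mrpl47* had 2684, 2341, 2634 and 2942 on the MI arrays, against 3838, 4325, 3856 and 4316 on the sham arrays (-0.62, SE 0.09). *Mrpl22* (-0.42, SE 0.07) and *Mrps36* (-0.48, SE 0.08) showed no overlap either. These genes are less bright than the respiratory chain subunits named above. Of 29 import and chaperone genes 14 fell, or 7 after quantile normalization, 8 without sham replicate 1, 9 without MI replicate 2 and 7 without MI replicate 4. Among them were *Timm8b*, a carrier chaperone between the membranes (-0.50, SE 0.08), *Tomm7* of the outer membrane pore (-0.48, SE 0.09) and *Grpel1*, the exchange factor of the import motor (-0.40, SE 0.07).

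**Figure D3:**
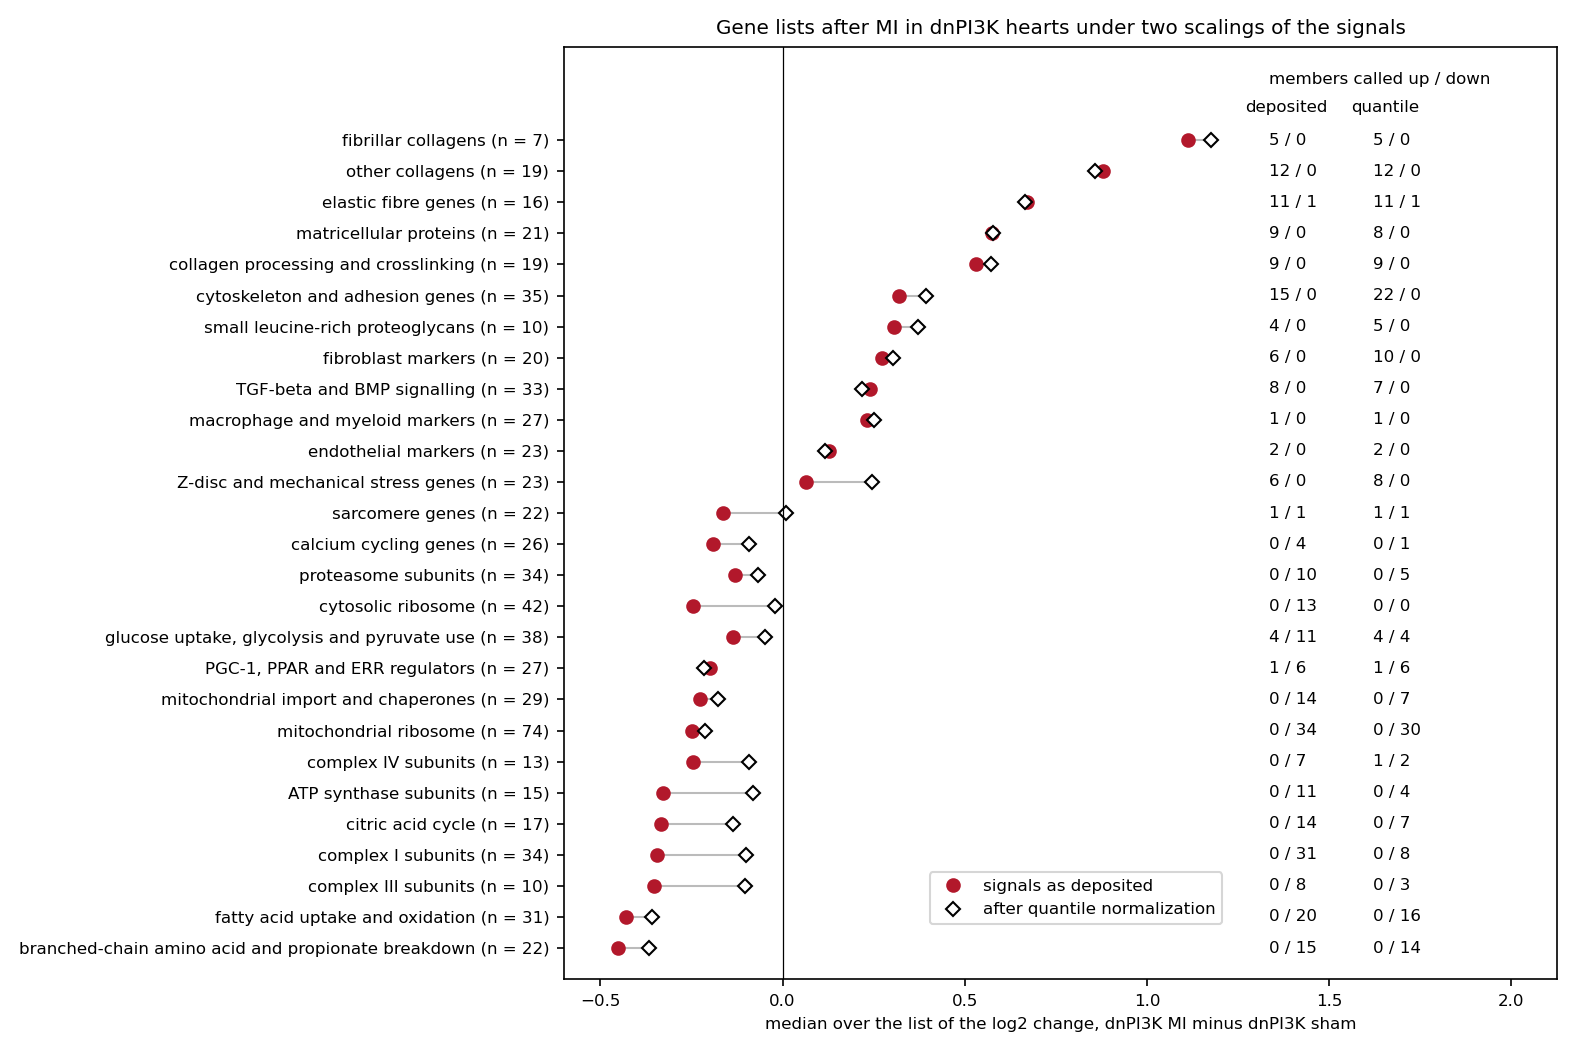
Median log2 change after MI in dnPI3K hearts (horizontal axis) over the tested members of 27 gene lists (rows), on the signals as deposited (red circles) and after quantile normalization (open diamonds), with the number of members called up and down under each. Matrix lists lie above 0 at nearly the same place under both scalings, the median of sarcomere genes changes sign, and that of complex I subunits moves to -0.10 with quantile normalization, against -0.35 as deposited.

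A list of 27 genes of PGC-1, PPAR and estrogen-related receptor regulation, which also holds the cofactor *Hopx* and the enzyme *Dio2*, was tested. As deposited, 6 of them fell (22.2%) and 1 rose (3.7%), against 5.19% and 4.23% of all genes tested. After quantile normalization 6 fell and 1 rose as well, and 5 of the falls were called on both scalings. *Tfam*, which packs and transcribes mitochondrial DNA, had 1392, 1478, 1504 and 1496 on the MI arrays, against 1759, 1804, 1911 and 1974 on the sham arrays (-0.34, SE 0.07). *Hopx*, a homeodomain-only cofactor of the heart, fell to 16750, 13640, 15960 and 12740 on the MI arrays, against 30620, 24960, 20710 and 25740 on the sham arrays (-0.78, SE 0.12), and *Mef2a* fell by 0.30 (SE 0.07). *Ppargc1a*, the PGC-1 alpha coactivator, had 2938, 3081, 2150 and 1455 on the MI arrays, against 3743, 3536, 3108 and 4095 on the sham arrays (-0.64, SE 0.19, adjusted p = 0.0353, and 0.0611 after quantile normalization), and its call was lost when any of 5 arrays was left out. *Dio2*, the deiodinase that activates thyroid hormone, was the one that rose (1.93, SE 0.32).

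Since many mitochondrial genes moved together, their promoters were searched for AAGGTCA. These letters form a half-site core that estrogen-related receptors, partners of PGC-1 alpha, can bind, and are not particular to them. Bases beside the letters, which can be part of a receptor's site, were not searched. The letters were sought on both strands in the RefSeq windows of GRCm38.p6 from 250 bases before to 50 bases after each gene's start. The motif stood in the windows of 12 of 133 genes with a promoter entry (9.02%) among the 154 that fell in the 9 mitochondrial and amino acid lists, in 9.05% of all tested members of those lists, in 5.71% of all genes that fell, in 2.7% of those that rose and in 4.14% of all tested genes. Members that fell thus held the motif as often as all members. The falls counted here are those on the deposited signals. Of 31 falls of complex I genes and 11 of ATP synthase genes, 8 and 4 were called on both scalings. *Sdhd* and *Timm8b* lie head to head on chromosome 9, and their windows overlap and share 1 copy of the motif. The share differed from list to list, from 0 of 12 fallen genes of branched-chain amino acid breakdown to 3 of 10 of ATP synthase and 4 of 13 of mitochondrial import. Of the genes named here, 8 fell and hold the motif: *Acadm*, *Sdhd*, *Atp5e* and *Timm8b* of the mitochondrial lists, and *Gstk1*, *Rpl3l*, *Shld1* and *Smco1* outside them. The named falls with a promoter entry were not counted, so no share goes with these 8. Windows of 4 follow as examples, and capitals mark the motif, in each case as TGACCTT, its form on the other strand. They lie at chr3:153944594-153944893 (minus strand), chr9:50603800-50604099 (minus strand), chr2:174464052-174464351 (minus strand) and chr6:42245685-42245984 (plus strand).
Acadm: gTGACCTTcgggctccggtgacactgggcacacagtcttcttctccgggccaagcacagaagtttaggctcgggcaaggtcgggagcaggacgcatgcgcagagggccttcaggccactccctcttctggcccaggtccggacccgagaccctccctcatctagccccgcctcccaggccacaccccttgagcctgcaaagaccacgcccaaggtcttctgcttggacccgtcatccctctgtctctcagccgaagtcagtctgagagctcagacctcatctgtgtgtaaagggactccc
Sdhd: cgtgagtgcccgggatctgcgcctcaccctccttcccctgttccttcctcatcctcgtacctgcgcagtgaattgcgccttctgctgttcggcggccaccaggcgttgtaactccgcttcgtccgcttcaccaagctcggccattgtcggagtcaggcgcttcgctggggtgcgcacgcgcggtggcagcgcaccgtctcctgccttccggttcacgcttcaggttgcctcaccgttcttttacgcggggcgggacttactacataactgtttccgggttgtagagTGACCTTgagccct
Atp5e: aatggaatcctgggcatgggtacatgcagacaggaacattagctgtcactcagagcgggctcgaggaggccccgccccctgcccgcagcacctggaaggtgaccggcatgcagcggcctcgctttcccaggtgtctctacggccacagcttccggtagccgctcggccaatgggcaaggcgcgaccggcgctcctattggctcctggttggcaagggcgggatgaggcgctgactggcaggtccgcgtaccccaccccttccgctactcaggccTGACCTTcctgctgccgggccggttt
Gstk1: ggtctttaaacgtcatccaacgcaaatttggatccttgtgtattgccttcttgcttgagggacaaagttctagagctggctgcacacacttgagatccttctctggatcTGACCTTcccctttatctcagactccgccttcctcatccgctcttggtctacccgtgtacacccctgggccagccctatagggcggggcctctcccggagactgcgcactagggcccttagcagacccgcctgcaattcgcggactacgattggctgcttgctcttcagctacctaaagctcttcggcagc
Counted from the first base of the gene, the motif begins 249 bases before it in *Acadm* and 141 before it in *Gstk1*, and inside the gene's first bases in *Sdhd* and *Atp5e*. *Atp5e*, a small subunit of the ATP synthase rotor, had 21270, 17840, 19190 and 17000 on the MI arrays, against 31920, 26120, 25790 and 25970 on the sham arrays (-0.54, SE 0.11). *Gstk1*, a glutathione transferase of mitochondria and peroxisomes, had 2595, 2214, 2980 and 2248 on the MI arrays, against 5205, 4760, 4885 and 5465 on the sham arrays (-1.02, SE 0.14). A match describes the letters and shows no binding.

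Genes of glucose use went both ways: of 38 genes of glucose uptake, glycolysis and pyruvate use 4 rose and 11 fell, or 4 and 4 after quantile normalization. The rises numbered 2 without MI replicate 2 or 4 or sham replicate 1, 2 or 4. *Slc2a4*, the insulin-regulated glucose transporter GLUT4, had 4402, 5150, 4852 and 4494 on the MI arrays, against 7371, 6317, 7343 and 6932 on the sham arrays (-0.56, SE 0.10). *Pfkp*, the platelet-type phosphofructokinase, had 2541, 2936, 2904 and 2625 on the MI arrays, against 1392, 1662, 1387 and 1539 on the sham arrays (0.88, SE 0.17). Muscle enolase *Eno3* fell by 0.52 (SE 0.10) and *Pdk2*, which holds back pyruvate oxidation, by 0.52 (SE 0.10). The creatine kinases *Ckm* (-0.32, SE 0.08) and *Ckmt2* (-0.29, SE 0.07) fell on the deposited signals but were at -0.07 and -0.04 after quantile normalization, neither called.

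Antioxidant genes went both ways, with 5 rises and 9 falls among 35, or 5 and 6 after quantile normalization and 3 rises without the arrays numbered 415 to 418. Beside *Gstk1*, the membrane glutathione transferase *Mgst3* fell by 0.61 (SE 0.12). *Sod2*, the superoxide dismutase of mitochondria, fell by 0.34 (SE 0.07) and lost its call after quantile normalization (-0.12, adjusted p = 0.341). *Nox4*, an NADPH oxidase that produces hydrogen peroxide, had 443, 896, 812 and 1186 on the MI arrays, against 160, 292, 215 and 95 on the sham arrays (2.09, SE 0.33). The secreted peroxidase *Gpx3* rose by 0.56 (SE 0.10).

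In the pathway that the transgene targets, 4 of 41 insulin, IGF1 and PI3K genes rose (9.76%) and 1 fell (2.44%). The shares of all genes tested were 4.23% and 5.19%. In the same list 2 genes rose in Ntg hearts and 3 in caPI3K hearts, with 0 falls in either. The rises in dnPI3K hearts were those of the ligand and its binding proteins: *Igf1* (0.59, SE 0.16) and the binding proteins *Igfbp7* (0.76, SE 0.12), *Igfbp6* (0.79, SE 0.22) and *Igfbp4* (0.36, SE 0.10). *Grb14*, an adaptor that holds back the insulin receptor and is named after its values were seen, fell by 0.29 (adjusted p = 0.0479). The list had 1 rise without the arrays numbered 415 to 418, MI replicate 4 or sham replicate 4, and its fall was lost when any of 6 single arrays was left out. FoxO target genes, which PI3K signalling normally holds down, fell in 5 of 23 cases and rose in 0. After quantile normalization 5 fell as well, 4 of them on both scalings, and 3 fell without sham replicate 1 or 2. Among the falls as deposited were *Ccng2* (-0.41, SE 0.10) and *Trim63*, a ubiquitin ligase of muscle wasting (-0.43, SE 0.11). In the secretory pathway 5 of 35 genes rose (14.3%) and 1 fell (2.86%), against 4.23% and 5.19% of all genes tested. The translocon gene *Sec61a1* rose by 0.51 (SE 0.11) and the disulfide isomerase *Pdia3* by 0.34 (SE 0.09). The fall was that of *Herpud1* (-0.63, SE 0.13), a gene of degradation at the endoplasmic reticulum. In that list 1 gene rose without the arrays numbered 415 to 418, and 2 rose without MI replicate 3 or sham replicate 1.

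Counts of proteasome and ribosome genes depended on the scaling and on single arrays. Of 34 proteasome subunits 10 fell, or 5 after quantile normalization, 5 without MI replicate 4, sham replicate 1 or sham replicate 2, and 6 without sham replicate 3. *Psmb7*, a catalytic beta subunit, had 13180, 11110, 10350 and 12550 on the MI arrays, against 19340, 16890, 16850 and 17260 on the sham arrays (-0.58, SE 0.08, adjusted p = 8.01e-05, and -0.44 after quantile normalization). Of 42 cytosolic ribosomal genes 13 fell as deposited, with a median of -0.25, and 0 after quantile normalization, with a median of -0.02 and 3 at an unadjusted p below 0.05 by limma. As deposited, 3 fell without sham replicate 1 or MI replicate 2, 8 without sham replicate 2 or MI replicate 4, and 2 without the arrays numbered 415 to 418. *Rpl3l* is set apart from them as a heart and skeletal muscle form of a ribosomal protein: it had 3352, 2438, 2705 and 1872 on the MI arrays, against 5661, 4382, 5922 and 6025 on the sham arrays (-1.10, SE 0.14, adjusted p = 4.26e-05, and -1.06 after quantile normalization).

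**Figure D4:**
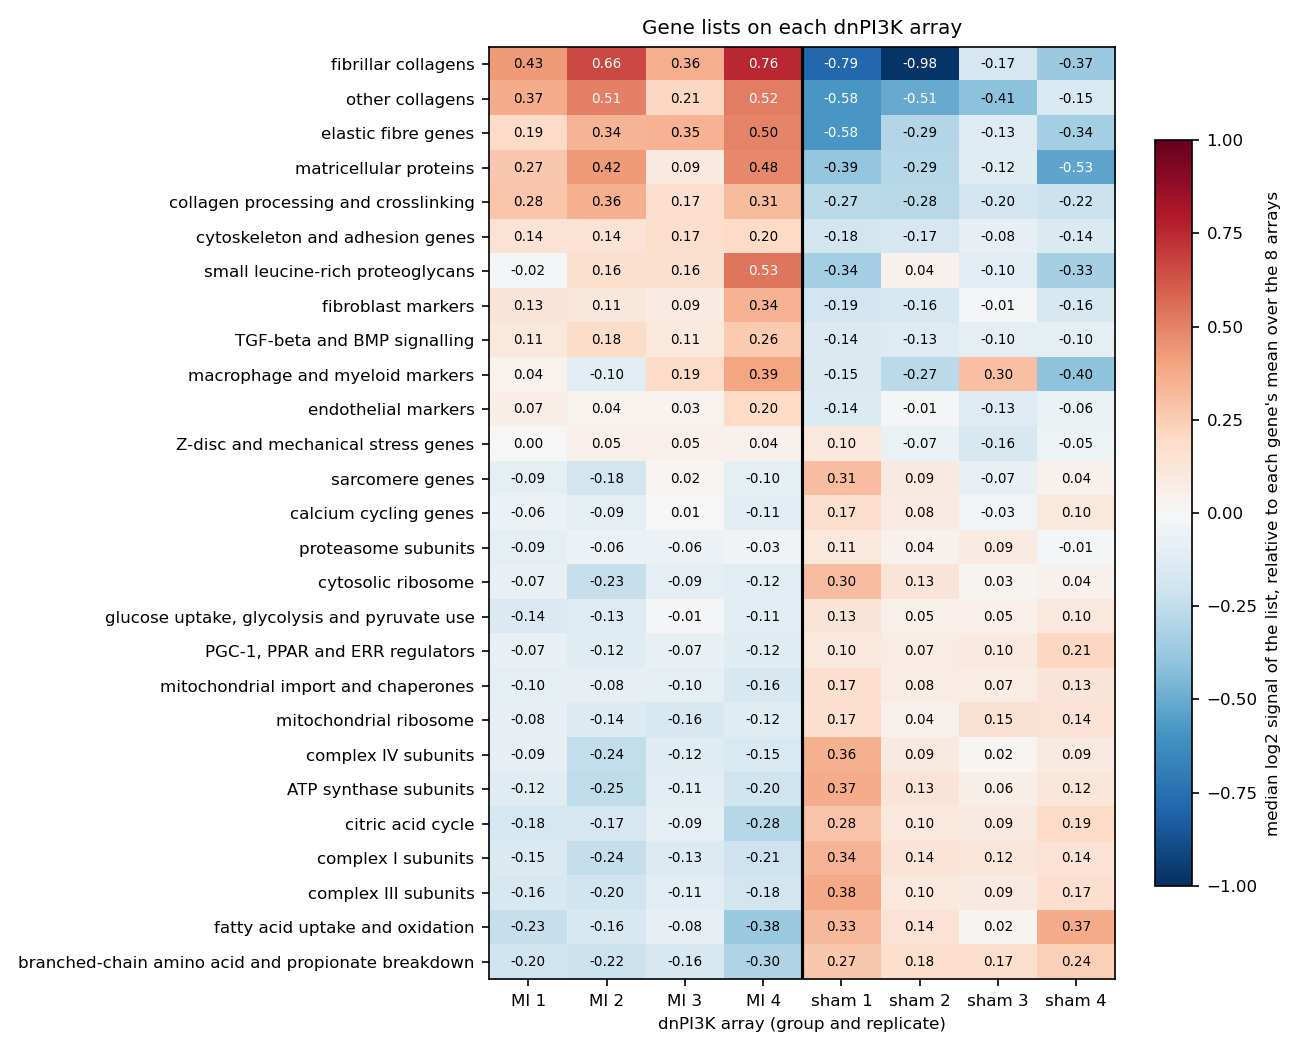
Median log2 signal of 27 gene lists (rows) on each dnPI3K array (columns, MI replicates left of the line and sham replicates right of it), relative to each gene's mean over the 8 arrays; red is above and blue below that mean. Sham replicate 1 is highest for complex I subunits (0.343, against 0.118 to 0.145 on the other sham arrays), and the branched-chain list is below 0 on all 4 MI arrays and above 0 on all 4 sham arrays.

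The largest fall of any gene tested was that of *Gnmt*, a glycine methyltransferase (-2.59, SE 0.49), whose signals were 14 to 77 on the MI arrays and 200 to 356 on the sham arrays. The next falls are the largest among genes without overlap whose mean in the higher group was above the median over all genes. *Ano10*, of the anoctamin family, had 1283, 1281, 1002 and 747 on the MI arrays, against 5083, 3246, 3601 and 5674 on the sham arrays (-2.01, SE 0.25, adjusted p = 4.26e-05). *Retnla*, a secreted resistin-like protein of alternatively activated macrophages and fat, had 422, 430, 180 and 191 on the MI arrays, against 1364, 1115, 1082 and 1097 on the sham arrays (-2.00, SE 0.33). In neither gene do the groups overlap, which that choice required. *Ces1d*, a carboxylesterase and lipid hydrolase, fell by 1.38 (SE 0.25), *Gpr22*, an orphan receptor of heart and brain, by 1.18 (SE 0.19), *Stk39*, a kinase of ion transport, by 1.04 (SE 0.17) and *Ift81*, of the transport machinery of cilia, by 1.11 (SE 0.17). Also among the 15 largest falls under that limit were *Acy1* (-1.36), *Efnb3* (-1.24), *Inmt* (-1.20), *Shld1* (-1.18), *Ttll1* (-1.17) and *Smco1* (-1.15). Among rises, *Nmrk2*, a kinase of NAD synthesis from nicotinamide riboside, had 3775, 4111, 1168 and 2117 on the MI arrays, against 902, 1051, 531 and 569 on the sham arrays (1.75, SE 0.37). *Plcxd2* rose by 2.10 (SE 0.39), from low sham signals of 26 to 181, and *Chad*, a leucine-rich matrix protein of cartilage, by 1.67 (SE 0.34).

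Whether the response depends on the genotype was asked by testing the difference of MI effects. Far fewer genes were called after MI in the other genotypes, 101 up and 14 down in Ntg hearts (0.779% of those tested, 0.684% up and 0.0948% down) and 126 up and 38 down in caPI3K hearts (1.11%, 0.853% up and 0.257% down). A count of calls does not compare effects, though, and the direct test of dnPI3K minus Ntg called 0 genes (limma, Benjamini-Hochberg, 1122 at an unadjusted p below 0.05, smallest adjusted p = 0.243). The test of dnPI3K minus caPI3K also called 0 (1504 at an unadjusted p below 0.05, smallest adjusted p = 0.0733), but 63 genes (14 up and 49 down) were called when only the 4 groups compared were fitted and 44 (9 up and 35 down) with array weights. Without the sham arrays numbered 415 to 418, the difference from Ntg called 2 genes. In simulated data these tests called 9.9% (Ntg) and 6.4% (caPI3K) of differences of 0.5 log2 units, so 0 calls does not show equal effects.

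Most genes called in dnPI3K hearts had the same sign elsewhere, with smaller values. Of the 624 that rose, 575 (92.1%) had a positive change in Ntg hearts and 536 (85.9%) in caPI3K hearts, where the median changes were 0.29 and 0.26, against 0.61 in dnPI3K hearts. Of the 766 that fell, 718 (93.7%) and 626 (81.7%) had a negative change, with medians of -0.17 and -0.12, against -0.40 in dnPI3K hearts. Over all genes tested, 49.2% had a positive and 50.8% a negative change in Ntg hearts, and 49.6% and 50.4% in caPI3K hearts. Since these genes were picked for passing the test in dnPI3K hearts, their values there tend to be the larger ones. Called in both dnPI3K and Ntg hearts were 84 rises, 13.5% of the dnPI3K list and 83.2% of the Ntg list, and 10 falls, 1.31% and 71.4%. Called in both dnPI3K and caPI3K hearts were 86 rises, 13.8% of the dnPI3K list and 68.3% of the caPI3K list, and 17 falls, 2.22% and 44.7%.

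**Figure D5:**
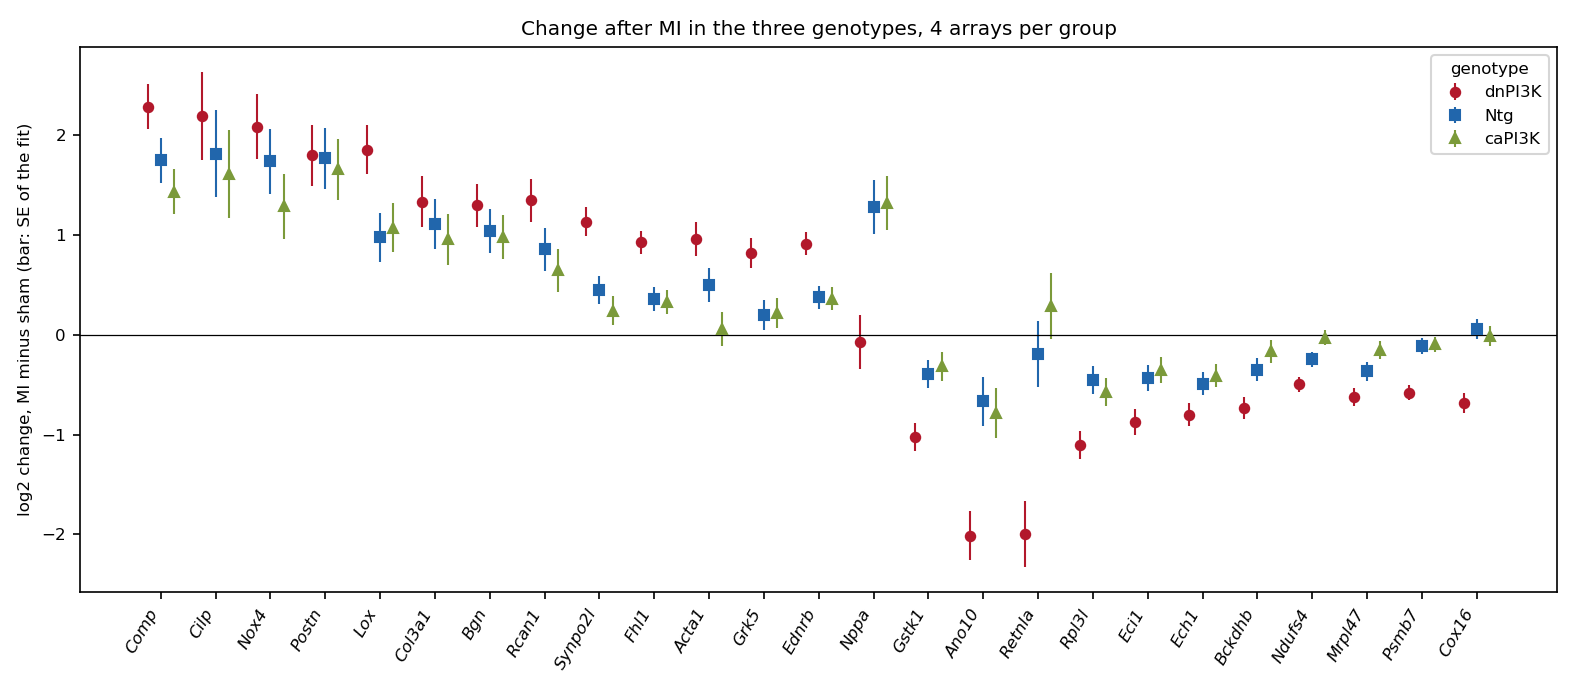
Log2 change, MI minus sham, of 25 named genes in dnPI3K (red circles), Ntg (blue squares) and caPI3K hearts (green triangles), with the standard error of the fit as bars. Postn lies at 1.80, 1.77 and 1.66, Nppa at -0.07, 1.28 and 1.32, and no difference between genotypes passed the adjusted test in the fit over 24 arrays.

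Over whole lists, the median change was 0.88 in dnPI3K, 0.70 in Ntg and 0.42 in caPI3K hearts for the non-fibrillar collagens. It was -0.43, -0.30 and -0.30 for fatty acid uptake and oxidation. For complex I subunits it was -0.35, -0.21 and -0.07, and for the mitochondrial ribosome -0.25, -0.07 and -0.10. After quantile normalization the medians were 0.86, 0.68 and 0.43 for the collagens, and -0.36, -0.22 and -0.29 for fatty acid uptake and oxidation. They were -0.10, -0.04 and -0.06 for complex I subunits and -0.21, -0.06 and -0.10 for the mitochondrial ribosome, in the same order of genotypes. These medians were not tested between genotypes. Single genes show how the values ran. *Postn* changed by 1.80 in dnPI3K, 1.77 in Ntg and 1.66 in caPI3K hearts, and *Fmod* by 1.35, 1.28 and 1.28, so these matrix genes had nearly one value in all genotypes. *Lox* changed by 1.86, 0.98 and 1.08, *Synpo2l* by 1.14, 0.45 and 0.24, and *Grk5* by 0.82, 0.20 and 0.22. Their differences from Ntg of 0.88 (SE 0.35), 0.69 (SE 0.20) and 0.62 (SE 0.21) had adjusted p of 0.62, 0.504 and 0.571. *Nppa* changed by -0.07, 1.28 and 1.32 in the same order of genotypes. Its difference from Ntg of -1.35 (SE 0.39) had an adjusted p of 0.504. The mean log2 signal of *Nppa* was 15.874 on the dnPI3K sham arrays, against 15.126 over the whole series. The series mean takes in MI and sham arrays of all genotypes, the dnPI3K arrays among them. A comparison with the Ntg sham arrays alone was not made. Whether the sham level accounts for the difference from Ntg was not tested. *Cox16*, an assembly factor of complex IV, had the smallest p for dnPI3K minus Ntg. It had 1668, 1302, 1515 and 1615 on the dnPI3K MI arrays, against 2281, 2291, 2766 and 2480 on the dnPI3K sham arrays (-0.69, SE 0.10), and changes of 0.06 in Ntg and -0.01 in caPI3K hearts, a difference from Ntg of -0.75 (SE 0.14, adjusted p = 0.243).

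Other genes of small p in the difference from Ntg were *Htra4*, a secreted protease, at 1.10 (SE 0.25), *Nova1*, a splicing factor, at 1.50 (SE 0.36), *Mfap3*, *Pdcd2*, *Chrac1*, *Coq5* and *A930033H14Rik*, all at an adjusted p of 0.352. *Myl7*, the atrial myosin light chain, was at -2.75 (SE 0.58), and its sham signals in dnPI3K hearts ran from 1014 to 3519. Against caPI3K the genes of smallest p were higher for *Kif5c* (2.20, SE 0.44), *Ddr1*, a collagen receptor (0.82, SE 0.17), and *Ddah1*, which clears inhibitors of nitric oxide synthase (1.07, SE 0.22), and lower for *Ggct* (-0.78, SE 0.15), *Naa38* (-0.55, SE 0.10), *Nsmce1* (-0.87, SE 0.18) and *Gnmt* (-3.43, SE 0.69), all at an adjusted p of 0.0733. *Retnla* had a difference from caPI3K of -2.29 (SE 0.47) at the same adjusted p. In the comparison with caPI3K the Y-linked *Eif2s3y* was above 500 on 3 of the 4 caPI3K sham arrays and on 0 of the 4 caPI3K MI arrays, so sex and operation run together there. Without those 3 arrays, which leaves 1 caPI3K sham array, 0 genes were called (smallest adjusted p = 0.0696).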

How the data were processed

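RNA from hearts homogenized one by one was hybridised to Affymetrix Mouse 430 2.0 arrays, 4 in each of 6 groups. Whether each array stands for its own mouse is not stated. The deposited values are linear intensity per probe set, made with MAS5 per the submitters' processing notes; the sources used here do not give its version or scaling settings. Precision is limited by the number of arrays.

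Of 45101 probe sets, 64 controls were set aside, 34945 name 1 gene, 932 several and 9160 none in the platform annotation. Of those naming 1 gene, 34741 were found in RefSeq (GRCm38.p6). Probe sets above the 40th percentile of their array on at least 4 arrays were kept (27127 naming 1 gene), and the one of highest mean stood for its gene, which left 14763 genes, 6946 of them with 2 or more probe sets. Group means of log2(signal + 11.2), where 11.2 is the median signal divided by 10, were fitted to 24 arrays with limma 3.58.1 (R 4.3.3) with an intensity trend, 18 residual degrees of freedom and Benjamini-Hochberg adjustment, and a gene was called at an adjusted p below 0.05. The fit was tested on simulated data. There, differences of MI effects of 1 log2 unit were called in 45.5% of cases against Ntg and in 45.4% against caPI3K. At 0.5 log2 units the shares were 9.9% and 6.4%. Differences of MI effects were contrasts in that fit. Promoters were searched with Python 3.11.15.

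Genes were named by rule: a core list of 20, the 15 largest called changes in each direction without overlap and above median signal, up to 4 members of smallest p per gene list, and up to 5 genes per direction of smallest p in each difference of MI effects. *Xist*, *Eif2s3y* and *Grb14* were chosen after their values were seen. The groups and gene lists were chosen with earlier results of these data known. Replicates are numbered in accession order. The alternatives were quantile normalization, other constants, other filters, the mean of a gene's probe sets, no intensity trend, fewer groups in the fit, array weights, the array number, and leaving out each array.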

Additional observations from a re-analysis of the deposited data

Results flagged for a closer look

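Among 340 groups of 4 arrays (the MI and the sham arrays of 170 genes named in the text), 20 (5.88%) held a value that stood apart from the other 3 by Dixon's 95% criterion. Chance flags about 1 in 20 groups, so the number is close to that rate.

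On dnPI3K MI replicate 4, *Bgn* was high with a signal of 26450 (17480 to 18720 on the other 3), *Fmod* 3011 (2133 to 2151), *Timp1* 1032 (558 to 616) and *Adamtsl2* 836 (601 to 609). On the same array *Idh2* was low at 14120 (18160 to 18850) and *Fgf13* at 2949 (3519 to 3642). On dnPI3K MI replicate 1, *Acy1* was low at 49 (213 to 261). On dnPI3K MI replicate 2, *Tgfb2* was high at 2415 (1597 to 1678), and *Stk39* at 1077 (1160 to 1175) and *Timm8b* at 3795 (4241 to 4319) were low. On dnPI3K MI replicate 3, *Meox1* was low at 1312 (1753 to 1798) and *Sulf1* at 1278 (1629 to 1695).

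On dnPI3K sham replicate 1, 5 genes were high: *Atp5e* had 31920 (25790 to 26120), *Cox4i1* 60470 (49510 to 50910), *Ndufs4* 12330 (11020 to 11230), *Mgst3* 21780 (17320 to 17960) and *Retnla* 1364 (1082 to 1115). On dnPI3K sham replicate 2, *Tgfb2* was high at 841 (599 to 627), and *Grpel1* at 6128 (6813 to 6933) and *Ttll1* at 8049 (9722 to 9864) were low.

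Probe sets that name no gene or several were left out of the gene counts. Of 5934 such probe sets above the filter, 120 (2.02%) were called by limma after MI in dnPI3K hearts, 40 up and 80 down.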

How the results depend on the processing

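The count of 1390 genes called after MI in dnPI3K hearts was 1242 (602 up and 640 down) after quantile normalization, and lay between 1012 and 1523 with other constants, filters, probe set rules, variance settings or array number terms. It was 665 without the sham arrays numbered 415 to 418, 850 on the arrays numbered under 1000 and, in an alternative chosen after seeing the data, 92 on those numbered over 1000, where a single MI array is assumed to vary like the other groups. All 3 use fewer arrays. Leaving out 1 dnPI3K array gave 842 to 1335, with 842 without sham replicate 1. Quantile normalization without MI replicate 1, also chosen later, gave 1191. The difference from Ntg, with 0 called, had 2 without the arrays numbered 415 to 418 and 0 to 1 when 1 array was left out (1 without Ntg sham replicate 2 or Ntg sham replicate 4). The difference from caPI3K, with 0 called, had 63 when only its groups were fitted, 44 with array weights, and 0 to 4 when 1 array was left out (4 without dnPI3K MI replicate 1, 3 without caPI3K sham replicate 4, and 1 without dnPI3K MI replicate 4 or dnPI3K sham replicate 2). The cause of these shifts was not tested. Of 157 called genes named in the text, 145 were also called after quantile normalization, 133 without the arrays numbered 415 to 418, 129 with the mean of a gene's probe sets, 132 on the arrays numbered under 1000, 33 on those numbered over 1000 and 138 to 154 when 1 array was left out (138 without sham replicate 1), and none of the 157 changed sign under any alternative. *Nppa* (-0.07) was at 0.11 after quantile normalization, with and without MI replicate 1 (0.114 and 0.111), and at 0.025 without the arrays numbered 415 to 418. *Ankrd1* (0.07) was at -0.036 on the arrays numbered under 1000. No paired analysis was possible because the labels give each array its own number and no number is shared between groups.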
